A study of Mus musculus with 10 samples.

Results

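Interferon-stimulated antiviral genes were examined in 10 mouse mammary tumours. The 36 genes were chosen by name, as interferon-stimulated genes with their sensors and transcription factors, and interferon-gamma GTPases and MHC genes were not included. All 36 were found among the 37882 genes of the counts table, and all 36 passed the filter on low counts. The breast tumour line MCa-M3C was implanted orthotopically in FVB/N mice, and treatment began at about 100 mm3. Control mice (n = 5 libraries) received PBS and treated mice (n = 5) received TMA-ARB, valsartan in a form activated in the tumour microenvironment, at 40 mg/kg of valsartan. Both were injected intravenously every day for 6 days. The labels give no age. Nor do they tie libraries to individual mice, so a p-value here reflects spread among libraries, which may be technical. All tumours come from 1 cell line.

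Interferons are secreted proteins that cells release on sensing foreign or misplaced nucleic acid. Type I and type III interferons act through receptors and JAK kinases on a complex that includes STAT2 and IRF9 and binds the interferon-stimulated response element (ISRE) in promoters. Interferon gamma acts mainly through another promoter element, the gamma-activated site (GAS). The induced genes include viral RNA sensors, nucleases and their activators, the ubiquitin-like protein ISG15, and inhibitors that shut the response down. In tumours such genes can be expressed by cancer cells, stroma and immune cells alike.

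Promoter sequence is shown first. The genes were chosen by name as interferon-stimulated, a class that interferons act on through the ISRE. A high share of the ISRE core therefore follows in part from the choice. RefSeq promoter windows on GRCm38.p6, the same assembly as mm10, run from 250 bases before to 50 bases after a start site and were found for 25 members (29 windows). No windows were used for Dhx58, Ifi27l2a, Usp18, Ly6e, Oas2, Mx2, Mx1, Rtp4, Parp9, Zbp1 and Parp14. The ISRE core searched was GAAANNGAAA on either strand, and 12 of the 25 members (48%) held it, against 3.99% of the 27025 genes with a window. The GAS core searched was TTCNNNGAA, which reads the same on both strands, and 6 of the 25 members (24%) held it, against 9.55% of genes. Both cores were present in 3 members, and they overlapped in 1, Bst2. A match describes the letters only and was not tested as a binding site.

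The windows below belong to the 4 members of smallest p that hold the ISRE core, and to Herc6, the member of smallest p without it. Each runs 5′ to 3′ on the gene's strand, with the bases of ISRE cores in capitals. In Isg15 (chr4:156200769-156201068, minus strand) 3 overlapping cores begin at -78, -72 and -66 from the start site. Bst2 (chr8:71537423-71537722, minus) holds 2, at -130 and -124. Oas1a (chr5:120907476-120907775, minus) holds 2 next to the start site, at -20 and -14. Oas3 (chr5:120777610-120777909, minus) holds 1, at -75. Herc6 (chr6:57580742-57581041, plus) holds 0.
Isg15: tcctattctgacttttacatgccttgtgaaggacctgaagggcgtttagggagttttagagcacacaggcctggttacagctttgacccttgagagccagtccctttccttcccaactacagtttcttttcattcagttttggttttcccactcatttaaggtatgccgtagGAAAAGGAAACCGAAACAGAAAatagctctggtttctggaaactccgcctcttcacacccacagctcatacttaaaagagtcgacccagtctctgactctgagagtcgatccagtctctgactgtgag
Bst2: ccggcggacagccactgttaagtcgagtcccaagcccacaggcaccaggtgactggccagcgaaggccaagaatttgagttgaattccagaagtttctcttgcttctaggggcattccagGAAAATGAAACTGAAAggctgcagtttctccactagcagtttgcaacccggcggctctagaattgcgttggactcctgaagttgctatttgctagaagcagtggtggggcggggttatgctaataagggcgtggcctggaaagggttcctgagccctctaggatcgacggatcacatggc
Oas1a: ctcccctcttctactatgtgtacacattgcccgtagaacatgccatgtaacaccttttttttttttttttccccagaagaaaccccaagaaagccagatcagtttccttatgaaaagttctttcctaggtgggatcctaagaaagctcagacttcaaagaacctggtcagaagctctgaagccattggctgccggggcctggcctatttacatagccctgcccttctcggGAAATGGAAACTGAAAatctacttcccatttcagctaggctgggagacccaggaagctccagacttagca
Oas3: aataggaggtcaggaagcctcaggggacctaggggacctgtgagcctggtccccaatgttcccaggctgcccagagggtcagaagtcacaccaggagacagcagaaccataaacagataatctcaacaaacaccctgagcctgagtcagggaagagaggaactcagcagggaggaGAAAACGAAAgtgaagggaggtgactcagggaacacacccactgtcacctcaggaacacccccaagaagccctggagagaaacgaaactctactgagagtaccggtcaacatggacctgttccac
Herc6: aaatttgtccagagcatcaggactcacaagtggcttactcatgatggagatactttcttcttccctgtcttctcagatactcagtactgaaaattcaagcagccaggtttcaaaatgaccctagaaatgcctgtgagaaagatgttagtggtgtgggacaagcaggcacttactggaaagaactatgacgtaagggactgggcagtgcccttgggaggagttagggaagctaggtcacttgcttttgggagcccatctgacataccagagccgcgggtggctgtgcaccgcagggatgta

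Library totals ran from 12742953 to 16884621 counts. Mitochondrially encoded genes took a share of the counts that ran from 2.07% to 6.63% in controls and from 2.22% to 25.0% under TMA-ARB, and 5 libraries lay above 5% (control replicates 3 and 4, TMA-ARB replicates 8, 9 and 10). Of the epithelial markers of the labelled mammary tumour, Krt18 was at 62.1 to 201 CPM (counts scaled to a common library size), Epcam reached at most 12.1 CPM, and Cldn3 and Cldn4 were at 0 in at least 1 library of each group and reached at most 3.39 and 2.97 CPM.

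The question was whether the antiviral interferon program differed between treated and control tumours. Most of its genes lay lower in the treated group, by a small amount, and none passed the test. The log2 fold change of TMA-ARB over control was below 0 for 32 of 36 members, against 47.2% of the 14063 genes tested. The members were chosen with earlier results of these data known, so no test was run over them as a set. Its median over the members was -0.32, against 0.02 over all genes, and values ran from -0.84 (Oas3) to 0.32 (Eif2ak2). EdgeR called 0 of 36 members and 0 of all 14063 genes at an adjusted p under 0.05 (background 0%), and its adjusted p was 0.997 for every member. DESeq2 called 0 members and 2 genes in all, and limma-voom 0 of either. At an unadjusted p under 0.05 there were 4 members lower (Isg15, Bst2, Oas1a and Oas3; background 1.66%, 233 genes) and 0 higher (background 1.59%, 224 genes). The treated and control ranges overlapped for all 36 members; over all genes 0.526% had groups that did not overlap. The fold changes are on the log2 scale with TMM-scaled library sizes.

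The difference was uneven across the treated tumours. Against the mean of the controls, the 36 genes averaged a log2 difference of -0.000636 in TMA-ARB replicate 6, -0.88 in replicate 7, -0.08 in replicate 8, -0.59 in replicate 9 and -0.32 in replicate 10. The controls lay at -0.02, 0.21, -0.02, -0.06 and -0.11 in replicates 1 to 5. Treated replicates 6 and 8 sat within the range of the controls, and replicates 7, 9 and 10 below it. TMA-ARB replicate 7 had 34 of 36 genes below the control mean and the lowest value of all 10 libraries for 24 of them, where 17% of all genes have their lowest value. Replicates 7 and 9 together held the lowest value of 32 members (background 34.8%). Control replicate 2 held the highest value of 14 members (background 11.9%). Without TMA-ARB replicate 7 the median fold change was -0.16 and 28 members were negative. With control replicates 1 and 2 left out it was -0.20, and 1 member was lower at an unadjusted p under 0.05. Leaving out TMA-ARB replicate 9 alone also gave 1, and TMA-ARB replicate 6 alone gave 8. The count over all genes moved the same way. It was 99 of 14668 genes lower with both controls left out, 119 of 14321 without TMA-ARB replicate 9 and 558 of 14337 without TMA-ARB replicate 6.

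**Figure D1:**
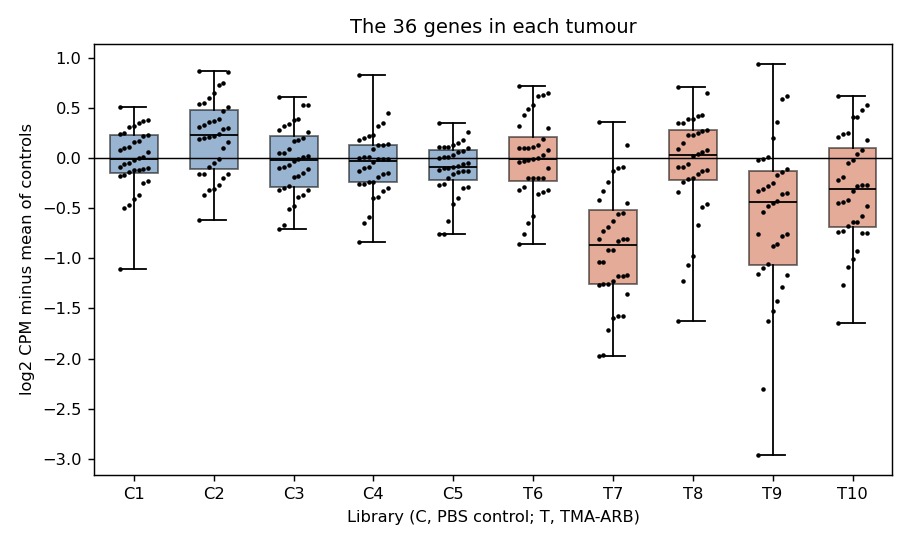
The log2 CPM of each of the 36 genes minus its mean over the 5 controls (y axis), by library (x axis; C control, T TMA-ARB). Points are genes, boxes span the quartiles with the median as a line, and whiskers reach the extremes; T7 has 34 of 36 genes below 0, while T6 and T8 are centred near 0.

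The treated tumours also differed more among themselves. The median coefficient of variation of the members was 22.5% over the 5 controls and 40.7% over the 5 treated libraries, against 23.8% and 33.0% over all genes. It was larger under TMA-ARB for 32 of 36 members, and for 73.2% of all genes. Irf9 had a coefficient of 2.89% in controls and 19.7% under treatment.

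Markers of other cells were read in the same libraries. The summed level of 15 T and NK cell markers was 170 and 187 CPM in control replicates 1 and 2, 33.7 to 43.8 CPM in the other controls, and 24.1 to 48.3 CPM under TMA-ARB, lowest in replicate 7. All 15 had negative fold changes, with a median of -0.72 and a lowest of -2.82. At an unadjusted p under 0.05 (edgeR), 4 of them were lower (background 1.66%) and 0 were called. Cd3e was at 0 in TMA-ARB replicate 9 and Klrb1c, which marks NK cells, in replicates 8 and 10, and no marker of any list was at 0 in every library. The summed level of 12 macrophage and monocyte markers was 1706 to 4307 CPM in controls and 768 to 5274 CPM under TMA-ARB, with the highest value in replicate 7 and the lowest in replicate 9, both of which were low in the 36 genes. Plasmacytoid dendritic cell markers (7), read without the member Bst2, summed to 92.4 to 244 CPM and 83.9 to 264 CPM. Siglech was at 2.00 to 4.73 CPM in all libraries, so most of each sum came from the other markers of that list. Neutrophil markers (6) summed to 104 to 349 CPM and 76.0 to 251 CPM, B cell markers (6) to 0.789 to 2.51 and 1.11 to 2.64 CPM, endothelial markers (8) to 211 to 379 and 165 to 297 CPM, fibroblast markers (7) to 4970 to 6358 and 5183 to 5923 CPM, and epithelial markers (8) to 84.1 to 159 and 107 to 243 CPM. The epithelial markers had the opposite direction to the members, with 5 of 6 tested positive, a median log2 fold change of 0.97, a highest of 2.03 (Krt19) and 1 higher at an unadjusted p under 0.05 (Krt8, 1.23 ± 0.42). The median was -0.20 for macrophage and monocyte markers, -0.06 for plasmacytoid dendritic cell markers and -0.39 for neutrophil markers. It was -0.20 for endothelial markers and -0.35 for fibroblast markers. Of the markers tested, 10 of 12, 3 of 5, 5 of 5, 6 of 8 and 4 of 7 were negative in that order (background 47.2%). The highest values were 1.13 among plasmacytoid dendritic cell markers and 0.95 among fibroblast markers. Among these 5 lists only the fibroblast list held a marker at an unadjusted p under 0.05 (edgeR, 1 lower). Their part in the members' values was not tested. In bulk tumours fewer cells of a type and less RNA per cell cannot be told apart.

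**Figure D2:**
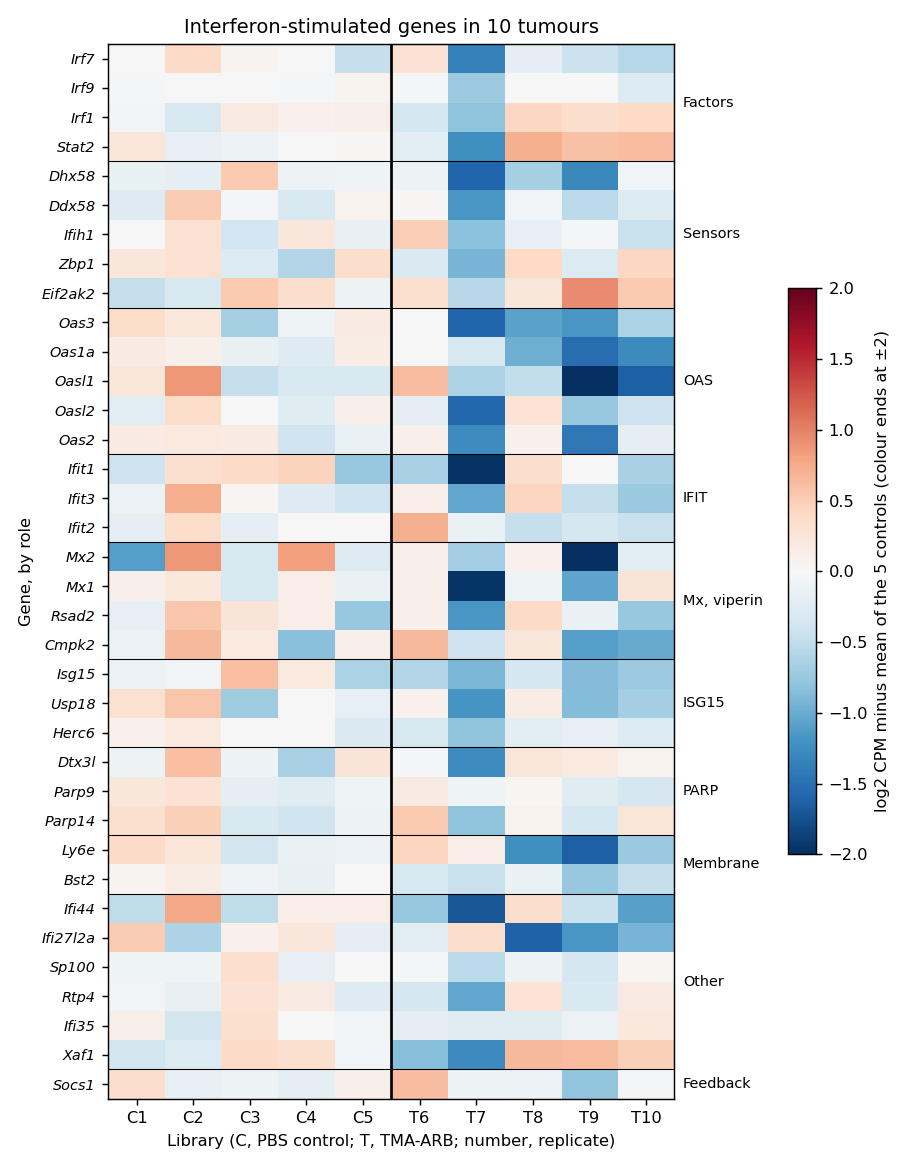
Colour gives log2 CPM minus the mean of the 5 controls, for each of the 36 genes (rows, by role) in each library (columns; C control, T TMA-ARB). The column of T7 is low for most genes, and Stat2, Irf1 and Xaf1 are high in T8, T9 and T10 where Ly6e, Oas1a and Ifi27l2a are low.

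Levels between genes were compared as CPM per kilobase of exon. In controls Ly6e was the highest at 270.3, followed by Bst2 at 126, Isg15 at 98.3, Ifi27l2a at 51.5 and Irf1 at 46.2. The lowest were Mx2 at 1.30, Oas3 at 1.33 and Mx1 at 1.40. Ly6e, a GPI-anchored surface protein of the LY6 family, lies on chromosome 15 (74955051 to 74959905). It measured 1309, 1188, 777, 918 and 923 CPM in control replicates 1 to 5, and 1352, 1096, 430.1, 325 and 598 CPM in TMA-ARB replicates 6 to 10. Treated replicates 6 and 7 lay among or above the controls, and the 3 others below all of them. The log2 fold change was -0.43 ± 0.35 (SE).

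The 4 transcription factors did not lean one way. Stat2, a subunit of the factor that binds the ISRE (chromosome 10, 128270559 to 128292849), measured 45.3, 34.1, 35.6, 38.0 and 39.0 CPM in controls and 33.2, 16.3, 62.4, 57.6 and 58.5 CPM under TMA-ARB. Treated replicates 6 and 7 lay below every control and replicates 8 to 10 above every control, so that the fold change of 0.25 ± 0.30 averages opposite differences. Irf1, a factor induced strongly by interferon gamma (chromosome 11, 53770014 to 53778374), measured 175, 146, 206, 194 and 197 CPM in controls and 142, 104, 244, 234 and 242 CPM in treated tumours. It had the same arrangement as Stat2 and a log2 fold change of 0.07 ± 0.24. Irf7, the factor that amplifies type I interferon production (chromosome 7, 141262706 to 141266481), measured 27.7, 35.9, 28.4, 27.7 and 19.9 CPM and 33.7, 10.7, 23.9, 20.3 and 18.4 CPM. Replicates 7 and 10 lay below all controls, and the fold change was -0.38 ± 0.27. Irf9, the DNA-binding subunit of the ISRE factor (chromosome 14, 55603571 to 55610030), measured 30.6, 30.7, 31.3, 30.1 and 32.4 CPM in controls, the narrowest range of the set relative to its mean. Under TMA-ARB it was at 30.6, 18.7, 31.3, 30.8 and 25.6 CPM, level with controls in 3 libraries and lower in replicates 7 and 10 (-0.18 ± 0.18).

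**Figure D3:**
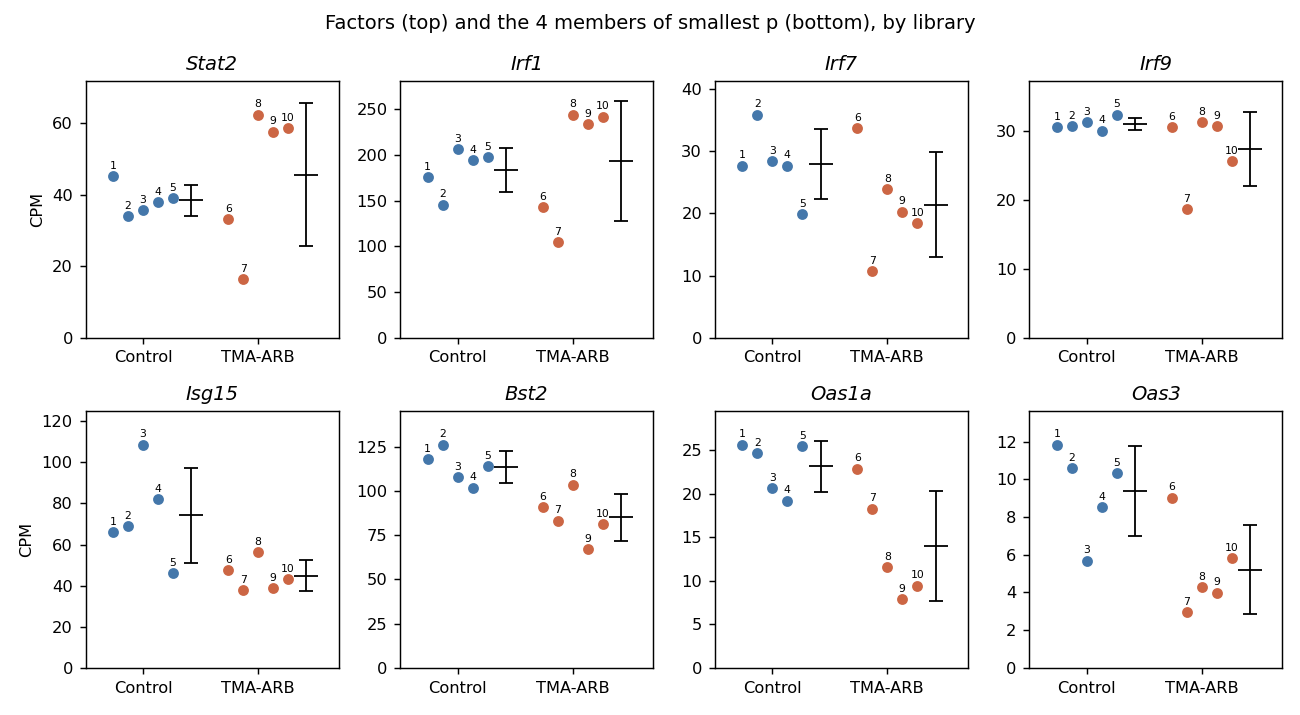
CPM (y axis, from 0) in each library, numbered by replicate, for the 4 transcription factors (top) and the 4 members of smallest unadjusted p (bottom); horizontal marks and bars are the mean ± SD (n = 5). Treated Stat2 and Irf1 values lie on both sides of the controls, and treated Isg15, Bst2, Oas1a and Oas3 all lie below their control means.

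Isg15 encodes a ubiquitin-like modifier and is itself an induced gene (chromosome 4, 156199424 to 156200818). It had the smallest unadjusted p of the set. The controls measured 65.9, 68.9, 109, 82.1 and 46.0 CPM and the treated tumours 47.7, 37.8, 56.3, 39.0 and 43.2 CPM. All 5 treated libraries were below the control mean of 74.3 ± 23.1 CPM (SD, n = 5), and the ranges overlapped through control replicate 5. The log2 fold change was -0.73 ± 0.22, with an unadjusted p of 0.00485 and an adjusted p of 0.997 (edgeR), and it stayed between -0.86 and -0.55 with any 1 library left out. Herc6, the ligase that attaches ISG15 in mice (chromosome 6, 57581000 to 57664632), measured 28.0, 30.5, 26.7, 26.3 and 21.7 CPM in controls and 21.1, 15.1, 22.8, 23.6 and 22.0 CPM under TMA-ARB. All treated values were below the control mean, with a fold change of -0.35 ± 0.18. Usp18, which removes ISG15 and blocks the type I receptor, averaged 12.9 ± 4.09 and 9.35 ± 3.83 CPM (-0.47 ± 0.32).

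Oligoadenylate synthetases sense double-stranded RNA and make the messenger that activates RNase L. Of the synthetase and synthetase-like genes 5 of 5 had negative fold changes, with a median of -0.65. Oas1a (chromosome 5, 120896256 to 120907521) measured 25.6, 24.7, 20.7, 19.2 and 25.5 CPM in controls and 22.9, 18.3, 11.6, 7.89 and 9.46 CPM under TMA-ARB. Only treated replicate 6 reached the range of the controls, and the fold change was -0.72 ± 0.28. Oas3 (chromosome 5, 120753098 to 120777661) measured 11.8, 10.6, 5.69, 8.54 and 10.3 CPM in controls and 9.02, 2.96, 4.28, 4.00 and 5.81 CPM in treated tumours, where replicates 7 to 9 were below every control (-0.84 ± 0.33). Oas2, which lies 3244 bases from Oas3, averaged 7.21 ± 1.23 and 5.39 ± 2.51 CPM (-0.42). Oasl1, which restrains translation of Irf7, and Oasl2 lie 11005 bases from each other, elsewhere on chromosome 5. Their fold changes were -0.65 ± 0.49 and -0.43 ± 0.28. Oasl2 averaged 37.0 ± 6.70 and 27.4 ± 12.0 CPM. Oasl1 ranged from 4.71 to 12.1 CPM in controls and from 1.23 to 10.2 CPM under treatment. Oas1a has close copies beside it, so reads can be divided among them.

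Of the cytosolic sensors 4 of 5 were negative. Dhx58, which encodes LGP2, a regulator of the other RNA helicase sensors (chromosome 11, 100694884 to 100704271), measured 9.20, 8.86, 14.8, 9.47 and 9.58 CPM in controls and 9.51, 3.29, 6.35, 4.10 and 9.80 CPM under TMA-ARB. Replicates 7, 8 and 9 were below all controls and the fold change was -0.65 ± 0.33. Ddx58 (RIG-I) averaged 37.6 ± 9.10 and 28.9 ± 8.49 CPM (-0.38), and Ifih1 (MDA5) 16.7 ± 3.18 and 15.0 ± 5.22 CPM (-0.15). Zbp1, a sensor of Z-form nucleic acid, averaged 31.0 ± 8.20 and 28.9 ± 10.5 CPM (-0.10). Eif2ak2, which encodes the RNA-activated kinase PKR, had the largest positive value of the set, at 39.6 ± 11.9 and 49.4 ± 17.2 CPM (0.32 ± 0.27).

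Effector genes with antiviral roles were negative in 3 of 3 cases for the IFIT family and 4 of 4 for the Mx genes, viperin and Cmpk2. The IFIT proteins bind foreign RNA ends, and their 3 genes lie together on chromosome 19. Ifit1 averaged 44.8 ± 15.2 CPM in controls and 32.4 ± 16.7 CPM under TMA-ARB (-0.47), Ifit3 15.2 ± 5.28 and 12.4 ± 5.31 CPM (-0.30), and Ifit2 16.3 ± 2.68 and 15.5 ± 6.33 CPM (-0.07). A near copy of Ifit3 can share its reads. Mx1 and Mx2 encode dynamin-like GTPases and were the members of lowest mean CPM. Mx1 (chromosome 16, 97447035 to 97462907) measured 5.65, 6.11, 4.18, 5.81 and 4.79 CPM in controls and 5.63, 1.25, 4.95, 2.46 and 6.28 CPM in treated tumours, within or just above the control range in 3 libraries (-0.36 ± 0.41). Mx2 (chromosome 16, 97535308 to 97560900), annotated as a polymorphic pseudogene, measured 1.84, 7.57, 3.27, 7.39 and 3.40 CPM and 4.42, 2.50, 4.36, 0.410 and 3.51 CPM, with 4 counts in replicate 9, the fewest of any member in any library (-0.62 ± 0.55). Rsad2, which encodes viperin, and its neighbour Cmpk2, a mitochondrial nucleotide kinase gene, had fold changes of -0.27 and -0.25. Rsad2 averaged 16.0 ± 5.00 and 13.3 ± 5.40 CPM, and Cmpk2 6.18 ± 2.19 and 5.20 ± 2.83 CPM.

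Bst2 encodes tetherin, which holds budding virus at the cell surface (chromosome 8, 71534255 to 71537456). It measured 118, 126, 108, 102 and 114 CPM in controls and 90.8, 83.2, 104, 67.1 and 81.1 CPM under TMA-ARB. In 4 of 5 treated libraries it was below every control, and replicate 8 alone reached their range. The log2 fold change was -0.41 ± 0.16 (unadjusted p of 0.0201, edgeR adjusted p = 0.997) and lay between -0.49 and -0.33 with 1 library left out. Ifi44, an interferon-induced protein gene (chromosome 3, 151730922 to 151749960), measured 14.2, 34.1, 14.2, 22.1 and 22.1 CPM and 11.9, 6.05, 25.8, 14.8 and 9.46 CPM, with a fold change of -0.65 ± 0.36. Ifi27l2a, a small hydrophobic protein gene (chromosome 12, 103442167 to 103443680), measured 32.8, 15.0, 24.5, 26.9 and 20.0 CPM and 20.0, 29.5, 7.39, 10.3 and 12.0 CPM. Its low treated values were in replicates 8, 9 and 10, and replicate 7 was high (-0.59 ± 0.34).

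The remaining members were close to 0. Parp9 and Dtx3l, whose products form an ADP-ribosylation and ubiquitin ligase complex, overlap by 682 bases on opposite strands of chromosome 16. Parp9 averaged 27.7 ± 4.74 CPM in controls and 26.0 ± 3.81 CPM under TMA-ARB (-0.09), and Dtx3l 28.1 ± 8.97 and 25.8 ± 8.45 CPM (-0.13). The nearby Parp14, which encodes a related ADP-ribosyltransferase, averaged 27.9 ± 7.49 and 27.2 ± 9.19 CPM (-0.03). Sp100, a nuclear body protein gene, averaged 32.5 ± 4.85 and 28.5 ± 4.52 CPM (-0.19). Rtp4, a receptor transporter gene, averaged 35.5 ± 5.66 and 31.1 ± 10.2 CPM (-0.19). Ifi35, an interferon-induced leucine zipper protein gene, averaged 54.0 ± 9.17 and 49.6 ± 7.07 CPM (-0.12). Xaf1, which encodes a pro-apoptotic partner of XIAP, was at 0.09. It measured 30.9 to 51.9 CPM in controls, 21.9 and 16.4 CPM in treated replicates 6 and 7, and 55.5 to 62.3 CPM in replicates 8 to 10. Socs1, the feedback inhibitor of JAK kinases, averaged 15.9 ± 2.67 and 15.6 ± 5.44 CPM (-0.02).

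**Figure D4:**
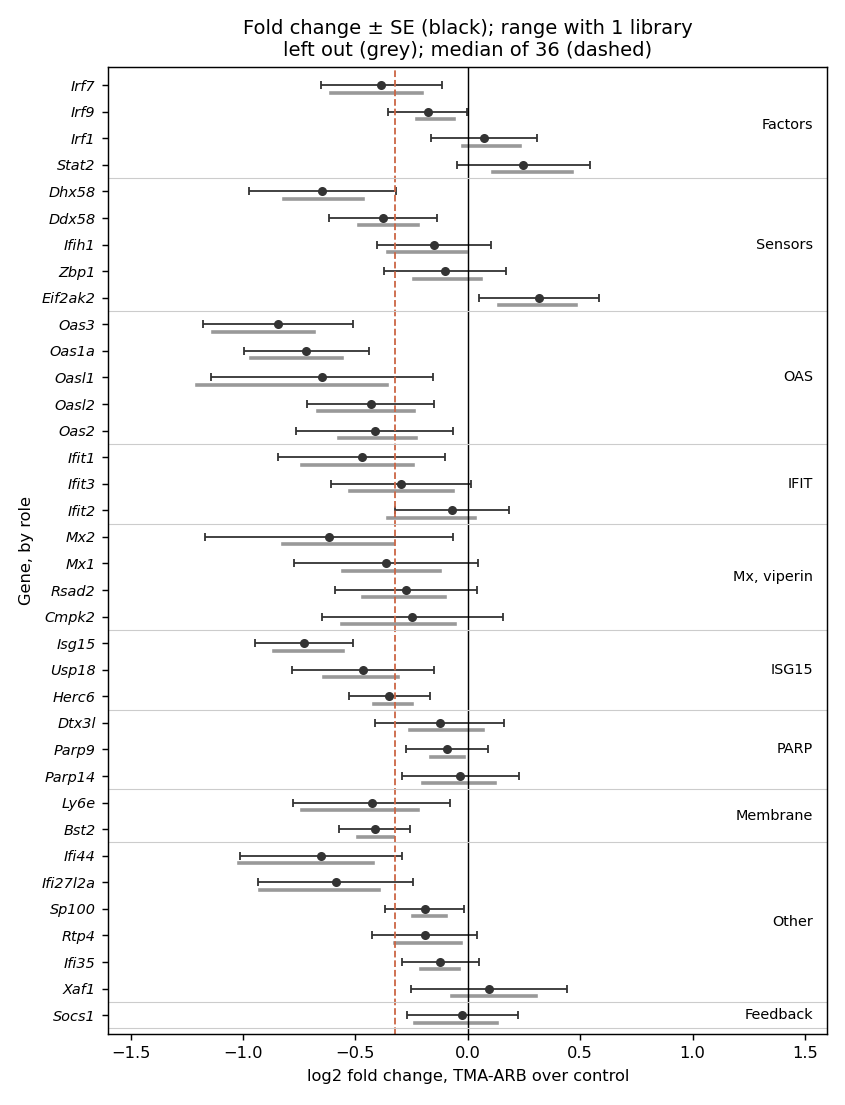
Log2 fold change of TMA-ARB over control (x axis) for each gene (y axis, by role); black points and bars are edgeR estimates ± SE, grey lines the range with 1 library left out, and the dashed line the median of -0.32. Of the 36 points, 32 lie below 0, and Isg15, Bst2, Oas1a and Oas3 have the smallest p.

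Fold changes were also read by promoter sequence. The 12 with the core had a median fold change of -0.34, with 10 negative and values from -0.84 to 0.32. The 13 without it had a median of -0.19, with 11 negative and values from -0.65 to 0.09. The 11 members with no window had a median of -0.42 and were all negative. The difference between these groups was not tested.

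Fold changes of single members differed between libraries of low and high mitochondrial share. Below 5% (3 controls, 2 TMA-ARB) the median was -0.47 with 31 of 36 negative, and above 5% (2 controls, 3 TMA-ARB) it was -0.19 with 28 negative. The treated libraries below 5% were replicates 6 and 7, where the 36 genes averaged -0.000636 and -0.88 against the control mean. Above 5% the controls held 6.37% and 6.63% and the treated libraries 10.5% to 25.0%, so the split did not match the share between groups. On both sides 24 members were negative. At an unadjusted p under 0.05 (edgeR), 4 members were lower and 0 higher below 5% (639 and 555 of 14637 genes). Above 5% there were 4 lower and 2 higher (520 and 554 of 14834 genes). Stat2 was at -0.66 below the line and 0.69 above it, Zbp1 at -0.86 and 0.63, Xaf1 at -0.82 and 0.22, and Irf1 at -0.48 and 0.25. The order was opposite for Ifi27l2a (0.13 and -1.38) and Ly6e (0.11 and -0.92). Isg15 (-0.49 and -1.05), Oas1a (-0.29 and -1.05), Oas3 (-0.85 and -0.60) and Bst2 (-0.45 and -0.33) were negative on both. With a term for the log2 mitochondrial share, these 4 were at -0.79, -0.45, -0.61 and -0.33 in that order. Their values in the full fit were -0.73, -0.72, -0.84 and -0.41. Over all 10 libraries, 1 member (Ly6e) was lower in every library above the line than in every library below it (background 4.79%), and 1 (Xaf1) was higher (background 5.36%). Both counts are near the background. Read within each group, Oas1a and Ly6e were lower above the line in both groups, and Ifit1, Rtp4 and Xaf1 were higher. The share of all genes that did so was not computed. The part of the mitochondrial share in these values was not tested.

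**Figure D5:**
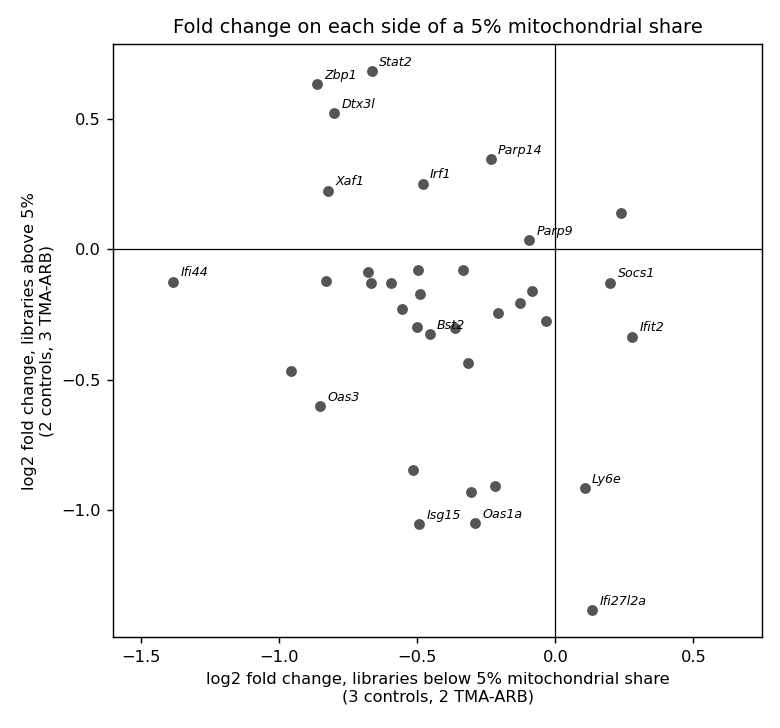
Log2 fold change of the 36 genes in libraries below a 5% mitochondrial share (x axis) against that in libraries above it (y axis), each point a gene. Points in the lower left are negative on both sides (24 genes). Stat2, Zbp1, Dtx3l, Xaf1, Irf1, Parp14 and Parp9 lie at the upper left, Parp9 close to 0 on both axes.

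Upstream of these genes, interferon transcripts were at the edge of detection. Ifng, the gene of interferon gamma, had 13, 11, 2, 1 and 10 counts in controls and 9, 6, 3, 0 and 0 counts under TMA-ARB, too few to test. In both groups the libraries above a 5% mitochondrial share had fewer Ifng counts than every library below it. The part of that share in these counts was not tested. Ifnb1 had 3 counts in control replicate 2, 5 counts in TMA-ARB replicate 6 and 0 elsewhere. Of 17 interferon genes in the table, 12 were at 0 counts throughout. A count of 0 is compatible with as many as 3 counts, a limit of 0.168 to 0.308 CPM depending on the library, for counting error only. No interferon gene was tested (0 of 17).

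Receptor chains, JAK kinases and STATs other than Stat2 were negative in 10 of 10 tested genes (background 47.2%), with a median of -0.28 and 0 called. Stat3 was at -0.38 and Ifnar2, a type I receptor chain gene, at -0.32. Among nucleic acid sensing genes outside the set, 13 of 20 were negative (median -0.06). Mb21d1, which encodes the DNA sensor cGAS, averaged 11.3 ± 2.72 CPM in controls and 16.8 ± 4.44 CPM under TMA-ARB, with 5 of 5 treated libraries above the control mean (0.57 ± 0.24, unadjusted p of 0.0344, edgeR adjusted p = 0.997). Tlr3, an endosomal RNA receptor gene, was at -0.44 and the kinase gene Tbk1 at 0.28.

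Other interferon-stimulated genes, listed separately from the 36, were measured in the same 10 libraries and are not a separate check. Of 59 tested, 51 were negative (background 47.2%), with a median of -0.23 and 0 called. At an unadjusted p under 0.05 (edgeR), 2 were lower (background 1.66%) and 0 higher (background 1.59%). Lgals3bp, a secreted galectin-binding protein gene, averaged 54.4 ± 16.3 and 31.8 ± 18.9 CPM (-0.77 ± 0.34). Ube2l6, the conjugating enzyme for ISG15, averaged 44.0 ± 7.84 and 34.1 ± 3.39 CPM, with 5 of 5 treated libraries below the control mean (-0.36 ± 0.17). Lgals9, a galectin gene, was at -0.36. Inhibitors of interferon signalling other than Socs1 and Usp18 were negative in 9 of 10 cases (median -0.14), with Usp25 at -0.32, Ptpn6 at -0.33 and Ptpn11 at -0.30.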

How the data were processed

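Poly-A RNA of 10 tumours was made into strand-marking NEBNext libraries, per the labels' protocols. The authors deposited estimated counts per Ensembl gene, 1 column per library. Salmon and mm10 are named in the submitters' processing notes; the version, the annotation and the strand setting are not given in the sources used here. Rounding changed none of the counts (0 were not whole), and 0 columns were unmatched. Groups come from the sample titles, and no replicate number is shared between groups.

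Counts of the 14063 genes passing the default filter were fitted across all genes with edgeR 4.0.16 (TMM, robust quasi-likelihood F test, Benjamini-Hochberg over all genes) in R 4.3.3. CPM uses the TMM-scaled library size, and log2 CPM a prior count of 2. SE is the fold change divided by the square root of F. The edgeR step was tested on simulated data. Coordinates and exon lengths come from GENCODE release 21 for mouse (mm10), and figures from matplotlib 3.10.9. Values in every library are given for the 4 factors, the 8 other members of smallest p, and the 2 highest and 2 lowest by mean CPM. Of each pathway list the 3 tested genes of smallest p are named, with Ifng and Ifnb1; 1 gene that this rule names is not reported here. The members and lists were chosen with earlier results of these data known. Alternatives were DESeq2 1.42.0, limma-voom (limma 3.58.1) with sample weights, RLE scaling, other filters, an adjusted p under 0.10, mitochondrial settings and left-out libraries.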

Additional observations from a re-analysis of the deposited data

Results flagged for a closer look

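Among the 72 groups of 5 libraries (36 genes in 2 groups), 6 held 1 library whose gap to the nearest other exceeded Dixon's 95% limit; chance gives about 5% of groups. In control replicate 3, Dhx58 was at 14.8 CPM (next control 9.58) and Sp100 at 40.9 CPM (next 32.2). In TMA-ARB replicate 7, Herc6 was at 15.1 CPM (next 21.1) and Dtx3l at 11.2 CPM (next 26.3). Ifit2 was at 26.6 CPM in TMA-ARB replicate 6 (next 14.8), and Ifi35 at 61.8 CPM in TMA-ARB replicate 10 (next 49.4).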

How the results depend on the processing

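No member was called at an adjusted p under 0.05 under any setting run with edgeR, DESeq2 or limma-voom, and the smallest adjusted p of a member was 0.344 (libraries above a 5% mitochondrial share). Over all genes the count called went from 0 to 2 with DESeq2 and to 4 in libraries above 5%, and the cause was not tested. The members' median log2 fold change ran from -0.47 to -0.16, and 28 to 33 members were negative; 22 were negative throughout and Eif2ak2 positive throughout. The other 13 changed sign at least once, and the cause was not tested. Below 5%, signs opposite to the full fit were Ifi27l2a 0.13, Ly6e 0.11, Stat2 -0.66, Irf1 -0.48, Ifit2 0.28, Xaf1 -0.82, Socs1 0.20 and, outside the set, Tbk1 -0.025. Above 5% they were Parp9 0.036, Dtx3l 0.52, Zbp1 0.63 and Parp14 0.35. With a term for the log2 mitochondrial share they were Stat2 -0.14, Cmpk2 0.064, Parp9 0.060, Irf1 -0.26, Ifit2 0.13, Xaf1 -0.56, Parp14 0.16, Socs1 0.19 and, outside the set, Ptpn11 0.013. With limma-voom they were Rtp4 0.019, Zbp1 0.0907 and Parp14 0.12. With control replicates 1 and 2 left out they were Parp9 0.094, Dtx3l 0.050, Zbp1 0.062, Irf1 -0.0471, Ifit2 0.002502, Xaf1 -0.11, Parp14 0.27 and Socs1 0.049. With 1 library left out, Dtx3l ran from -0.26 to 0.069, Zbp1 from -0.24 to 0.058, Irf1 from -0.021 to 0.23, Ifit2 from -0.35 to 0.031, Xaf1 from -0.071 to 0.30, Parp14 from -0.20 to 0.12 and Socs1 from -0.23 to 0.13. No paired analysis was possible because the groups share no replicate number. Members had 4 to 22321 counts per library, and Mx2, Oasl1 and Mx1, among the lowest, had the largest SEs.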
